A study of Caenorhabditis elegans with 57 samples.

Results

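The F-box genes of the fbxa, fbxb and fbxc families of *Caenorhabditis elegans* were followed through fathers, offspring and grandoffspring with and without the histone mark H3K27me3 on the sperm-inherited genome. Members were all genes whose symbol is fbxa-, fbxb- or fbxc- followed by a number, matched by sequence name to the deposited count table through the RefSeq gene list. That list held 391 such genes, and 390 of them were among the 45461 genes of the RNA table, with fbxa-6 missing. They comprised 222 fbxa, 113 fbxb and 56 fbxc genes, of which 322 are annotated as protein coding and 69 as pseudogenes.

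F-box proteins are the substrate adaptors of SCF ubiquitin ligases. The F-box motif binds a SKP1-related protein, called SKR in the worm, which joins it to the cullin CUL-1, while the rest of the protein chooses the substrate to be ubiquitinated. These families are greatly expanded in *C. elegans*, lie in clusters and often carry a domain shared with the germline sex-determination protein FOG-2, and the substrates of most members are not known. MES-3 is a subunit of PRC2, the enzyme complex that writes H3K27me3, a mark of repressed genes, whereas H3K36me3 lies over transcribed genes.

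In the first cross, mothers of the Hawaiian strain CB4856 carrying *fem-2(b245ts)*, which makes them females, were mated with N2 males carrying *him-8(e1489)*. These fathers were homozygous for *mes-3(bn35)* or, as the control, carried it over the balancer hT2-GFP. The offspring of either mating are labelled heterozygous for *him-8(e1489)*, *fem-2(b245ts)* and *mes-3(bn35)*, and are called M+P- where the father was homozygous mutant and M+P+ where he was heterozygous. Each of these histories had 2 RNA libraries of hermaphrodite germlines, 4 of male germlines and 3 of freshly hatched L1 larvae of mixed sex. The second cross used *mes-3(bn199)*, linked to a tagged *glh-1* (*glh-1::GFP::3xflag*), and both F1 groups are labelled heterozygous for these, with *fem-2(b245ts)*. It gave F1 hermaphrodite germlines (3 libraries per group) and germlines of F2 worms descending from M+P- F1 mothers (GM+GP-, 3 libraries), which are labelled with the same heterozygous genotype and no father. Fathers were represented by male germlines of *mes-3(bn35); him-8(e1489)* worms born to heterozygous mothers and of *him-8(e1489)* worms, with 3 libraries each, so that both groups of fathers carried the *him-8* mutation. Each germline library pooled 30 to 50 distal gonad arms of day 1 adults, and a larval library about 100 larvae. H3K27me3 and H3K36me3 were profiled by CUT&RUN, which sequences DNA cut loose around an antibody, in 2 libraries per mark and group, covering the hermaphrodite germline groups and the *him-8* males.

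The 33 RNA libraries held 5706650 to 19191934 counts, the H3K27me3 libraries 2797547 to 25714782 and the H3K36me3 libraries 1701400 to 41980395. *mes-3* RNA lay between 20.4 and 41.9 counts scaled to the library total (CPM) in the *mes-3* males and between 38.7 and 46.5 CPM in the *him-8* males, so the ranges overlapped and RNA level alone does not check the mutant labels. M+P- F1 replicate 3 had no counts for 640 of 4957 genes that averaged above 200 counts in the other second-cross libraries, and for 28 of 65 F-box members with a mean of at least 10 counts there. It was left out of the F1 comparison, and results with it are given beside. The male M+P+ replicate 3 stood apart in muscle RNA, and the first-cross H3K36me3 M+P+ replicate 2 in its low counts over single members. In bulk samples, fewer cells of a type and less RNA per cell cannot be told apart.

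Members were densely clustered in the genome. Chromosome II held 124 of the 391, chromosome III 82, chromosome IV 30, chromosome I 24 and X 22, and the others lay on chromosome V. The adjacent annotated gene was another member for 237 of them (60.6%), and 92 (23.5%) stood in runs of 5 or more. The longest runs had 10 members each, 1 on chromosome III made of fbxa genes including fbxa-75, and 1 on chromosome IV made of fbxc genes. In the authors' deposited table, 198 of 354 listed members (55.9%) had exonic sequence differences between the parental strains, against 38.4% of all 20258 genes. The median number of differences, where there was any, was 2 for members and 1 for all genes. Near-identical neighbours can share reads, and no source used here says whether counting used the strand, so the counts of single members carry that uncertainty.

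Most members were silent or nearly so in the germline. In M+P+ hermaphrodite germlines, 69 of 390 (17.7%) averaged 1 CPM or more, against 38.8% of other protein-coding genes. In M+P+ male germlines it was 59 (15.1%, against 47.1%) and in M+P+ larvae 126 (32.3%, against 64.8%). The families differed: in larvae, 107 of 221 fbxa and 17 of 56 fbxc genes reached 1 CPM but only 2 of 113 fbxb genes, and in hermaphrodite germlines the counts were 50, 15 and 4. Across the 3 M+P+ tissues, 210 members stayed under 1 CPM in each, 95 reached it in larvae alone, 27 in both germlines but not larvae, 15 in male germlines alone, 12 in hermaphrodite germlines alone and 16 in all 3. In the authors' deposited table, whose RPKM values are per length, the median member had 0.0313 RPKM in M+P+ hermaphrodite germlines, 0.0227 in male germlines and 0.283 in larvae. The medians over all genes of the authors' deposited table were 0.128, 0.429 and 3.41.

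The most abundant members of larvae differed from those of germlines, and the 2 kinds of germline shared some. In hermaphrodite germlines fbxa-215 led, at 191.1 RPKM in the authors' deposited table, followed by fbxc-44 (47.0), fbxa-101 (46.2) and fbxc-50 (43.7). In male germlines fbxa-202 led at 75.8 RPKM, followed by fbxc-48 (47.3), fbxa-155 (41.4), fbxa-101 (40.4) and fbxc-44 (37.4), and in larvae fbxa-24 led at 175 RPKM, followed by fbxc-36 (39.4) and fbxa-105 (27.6), again in the authors' deposited table. fbxa-202 had 84.6, 101.9, 106.6 and 109.2 CPM in the 4 M+P+ male germline libraries and 0.08 and 0 CPM in the hermaphrodite ones. fbxa-24 had 187, 359 and 244 CPM in the 3 M+P+ larval libraries and 0.08 and 0 CPM in hermaphrodite germlines. fbxa-215 had 286 and 248 CPM in hermaphrodite germlines, 30.6 to 56.9 CPM in male germlines and 0.31 to 2.14 CPM in larvae. Of these 3, fbxa-215 and fbxa-24 differed between all 3 tissues without overlap, fbxa-24 having 0.36 to 4.58 CPM in male germlines. By contrast, fbxa-101 overlapped between the 2 kinds of germline. fbxa-101 had 56.1 and 50.8 CPM in hermaphrodites and 37.6 to 57.0 CPM in males. By edgeR's quasi-likelihood test, 21 members were higher and 22 lower in male than in hermaphrodite M+P+ germlines, of 85 that passed the filter on low counts. Over all genes tested 52.9% were called (30.6% higher, 22.3% lower), so the members' share was near the background. Between larvae and hermaphrodite germlines, 104 members were higher and 40 lower in larvae of 186 tested, where 83.2% of all genes were called (54.3% higher, 28.9% lower), again near the background. Without hermaphrodite replicate 1 or 2, the male to hermaphrodite count fell from 43 to 24 or 25.

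**Figure D1:**
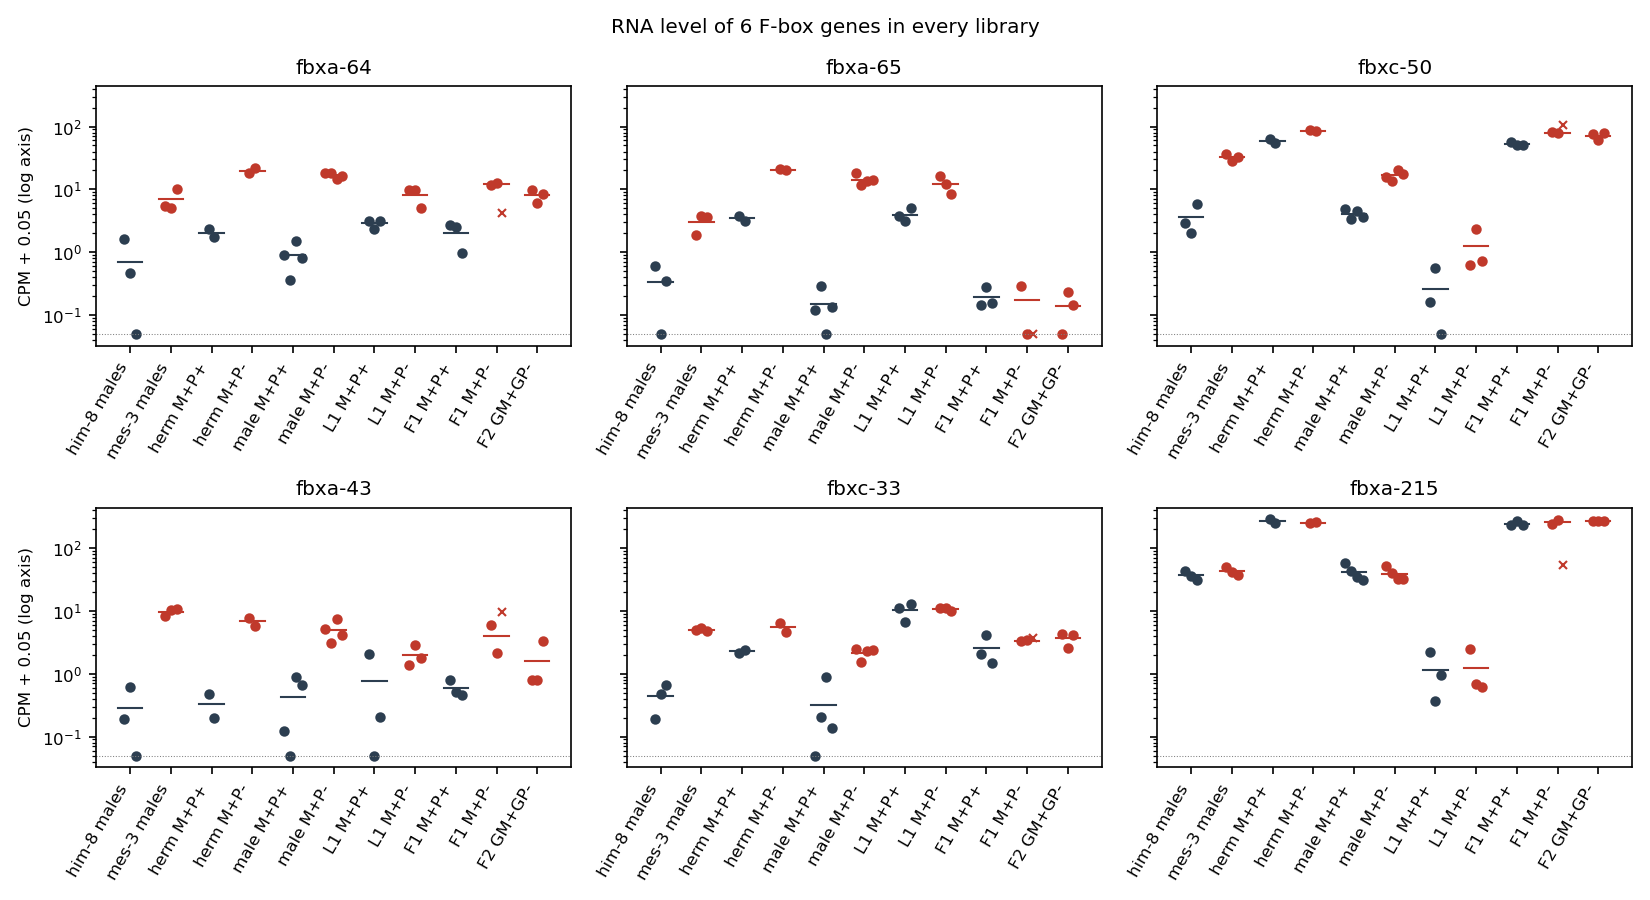
RNA level of fbxa-64, fbxa-65, fbxc-50, fbxa-43, fbxc-33 and fbxa-215 as CPM plus 0.05 on a log axis, 1 point per library by group, with group means as lines, *mes-3* males, M+P- and GM+GP- in red, and M+P- F1 replicate 3 as a cross outside the mean. fbxa-215 is highest in hermaphrodite germlines and lowest in larvae, while in germlines of the first cross every M+P- library lies above every M+P+ library for fbxa-64.

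The pair of members with a described role in the worm's response to intracellular pathogens was barely transcribed. FBXA-75 and FBXA-158 act there with the cullin CUL-6. fbxa-75 had 1 count in 1 of 33 libraries. fbxa-158 had counts in 6 libraries: in M+P- larvae it stood at 0.51, 4.17 and 4.69 CPM and in M+P+ larvae at 0, 0.94 and 0 CPM, with single counts in 1 male and 1 F1 germline library, and it passed the filter in no germline comparison. The core of the ligase was present throughout the germline: *cul-1* averaged 274 CPM and *skr-1* 168 CPM in M+P+ hermaphrodite germlines, while *cul-6* averaged 0.67 CPM.

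In M+P+ hermaphrodite germlines, more members than other genes had an H3K27me3 z-score above 0 and fewer had an H3K36me3 z-score above 0. In the first cross the authors' z-score of H3K27me3 was above 0 for 316 of 354 members (89.3%), with a median of 0.59, against 66.9% of other genes, whose median was 0.54. The z-score of H3K36me3 was above 0 for 59 members (16.7%), with a median of -0.41, against 44% of other genes, whose median was -0.11. In M+P+ F1 germlines of the second cross the difference was smaller for H3K27me3, with 257 members (72.6%) above 0 against 64.2% of other genes, and for H3K36me3 it was 59 members (16.7%) against 42.6%. H3K27me3 above 0 together with H3K36me3 below 0 was found at 278 members (78.5%) and 50.6% of other genes. All 22 members on X were above 0 for H3K27me3 in the first cross, and 19 of them in the second. How these scores were calculated is not stated in the sources used, so they are read only as an order of genes within a library.

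Members at 1 CPM or more lay above 0 for H3K27me3 more often than other genes past that cutoff, with levels above it not matched. Of 55 members with a z-score and at least 1 CPM in M+P+ hermaphrodite germlines, 35 (63.6%) had an H3K27me3 z-score above 0, against 29.3% of 7489 other genes at that level. Their H3K36me3 z-score was above 0 in 30 of 55 (54.5%), against 81.4% of those other genes. Most of the 8 members highest in RPKM there did not share the H3K27me3 excess. fbxa-215, fbxa-101, fbxc-45, fbxa-210 and fbxa-206 were below 0 for H3K27me3 in both libraries. fbxc-50 and fbxc-32 were above 0, and fbxc-44 was split. Under 1 CPM, 94.0% of members and 89.6% of other genes were above 0 for H3K27me3, with medians of 0.61 and 0.65. The second cross went the other way for these same genes. In its M+P+ F1 germlines 74.9% of the members and 84.9% of the other genes were above 0. In *him-8* males, 321 of 354 members (90.7%) were above 0 for H3K27me3, against 69.4% of other genes. These shares are descriptions with no test, since neighbouring members share chromatin and reads. The lowest scores need care: 11 members sat at the lowest z-score of both marks, and 12 members had no CUT&RUN read in any library.

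**Figure D2:**
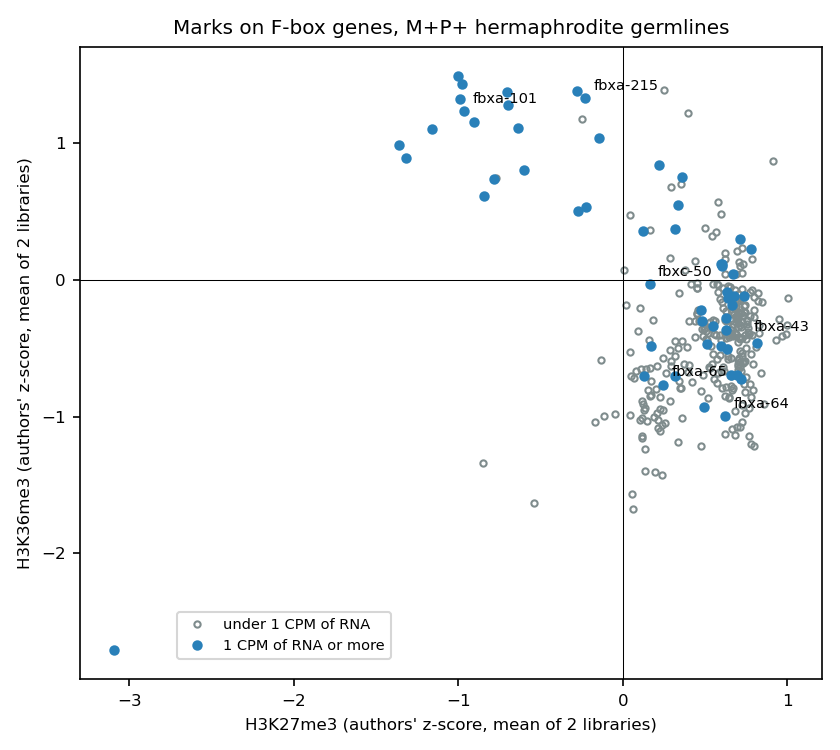
Authors' z-scores of H3K36me3 (vertical) against H3K27me3 (horizontal) in M+P+ hermaphrodite germlines, 1 point per member as the mean of 2 libraries, filled where the RNA reached 1 CPM. Of 354 members, 278 lie in the quadrant with H3K27me3 above 0 and H3K36me3 below 0.

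Loss of MES-3 in the fathers' own germline went with higher RNA of a set of members. In *mes-3* male germlines compared with *him-8* ones, 10 members were higher and 3 lower of 68 tested by edgeR's quasi-likelihood test, where 8.33% of all genes tested were called (7.01% higher, 1.32% lower). The other 55 tested members did not pass, and 322 were below the filter. The summed level of all members was 1279 ± 49.3 CPM in *mes-3* and 1053 ± 66.1 CPM in *him-8* males (SD, n = 3 each). By DESeq2, 12 members were higher and 3 lower, where 1117 of 8873 genes were called.

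fbxc-50 had 36.2, 28.2 and 32.4 CPM in *mes-3* males and 2.82, 1.98 and 5.77 CPM in *him-8* males. The groups were far apart (log2 fold change 3.15 ± 0.37 SE, edgeR adjusted p = 0.00292). fbxa-166 had 11.5, 12.1 and 9.32 CPM against 0.14, 0.42 and 0 CPM, on 4 counts in all in the *him-8* libraries (5.66 ± 0.66, adjusted p = 0.0028). fbxa-43 was at 8.22, 10.2 and 10.8 CPM against 0.14, 0.56 and 0 CPM (5.19 ± 0.72, adjusted p = 0.0063). fbxc-33, which lies in a run of 7 members on chromosome II, had 4.96, 5.26 and 4.66 CPM against 0.14, 0.42 and 0.61 CPM (3.56 ± 0.57, adjusted p = 0.0101). For these members every *mes-3* library lay above every *him-8* library.

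fbxa-136 and fbxa-184 were called higher on 1 and 2 *him-8* counts in all, so no fold is given for them: fbxa-136 had 3.00, 1.75 and 2.15 CPM in *mes-3* males, and fbxa-184 3.26, 3.15 and 3.82 CPM. The remaining members called higher already had counts in every *him-8* library, though fbxa-149 had few (5, 3 and 9). They were fbxa-149 (log2 fold change 2.36), fbxa-146 (1.70), fbxa-224 (0.99) and fbxa-223 (0.56). All but fbxa-224 are annotated pseudogenes. fbxa-223 was detected in male more than in hermaphrodite germlines, with 35.6 to 41.0 CPM in *him-8* males and 0 counts in both M+P+ hermaphrodite germline libraries.

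The 3 members that were lower in *mes-3* males were fbxa-192 (log2 fold change -1.16), fbxa-191 (-1.37) and fbxa-107 (-0.79), all on chromosome V. fbxa-107 had 10.3, 9.11 and 10.03 CPM in *mes-3* and 16.1, 16.1 and 17.2 CPM in *him-8* males, with no overlap. Of the 10 members called higher, 9 had a z-score, and all 9 were above 0 for H3K27me3 in *him-8* males. That count carries little information: several of them were nearly silent in *him-8* males and entered the test through the *mes-3* libraries, and of members under 1 CPM in M+P+ hermaphrodite germlines 94.98% were above 0 for this mark in *him-8* males. fbxa-64 and fbxa-65, described below for the offspring, had higher values in *mes-3* males without passing the adjusted threshold: fbxa-64 had 5.48, 5.08 and 10.2 CPM against 1.55, 0.42 and 0 CPM (adjusted p = 0.0635), and fbxa-65 had 1.83, 3.68 and 3.58 CPM against 0.56, 0 and 0.30 CPM (adjusted p = 0.0528).

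Somatic markers also differed between the fathers. Of the muscle list 2 of 7 tested genes were called higher in *mes-3* males (summed level 46.9 to 175 CPM against 23.4 to 62.8 CPM), of the neuron list 3 of 5 (103 to 146 against 83.7 to 95.3 CPM), of the somatic gonad list 2 of 4 (85.9 to 103 against 50.9 to 76.4 CPM), of the cuticle list 1 of 3 (*col-109*), and of the intestine list 0 of 4. Of 8 genes of the sperm program, *fer-1* and *spe-44* were lower, and no gene of the germline list was called. *sbt-1*, *rol-6*, *dpy-5* and *col-109* were at 0 in *him-8* males, and *fkh-6* in both groups. Their part in the members' result was not tested. Leaving out 1 library changed the count of 13 called members to between 2 and 10. It was 2 without *mes-3* replicate 2, 7 without *mes-3* replicate 1, 8 without *mes-3* replicate 3, 8 without *him-8* replicate 1 and 5 without *him-8* replicate 2.

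Among genes of the pathway, *cul-1* was lower in *mes-3* males (log2 fold change -0.42, edgeR adjusted p = 0.014), the 1 call among 24 SCF and cullin genes tested. Of 9 other F-box genes, *dre-1* was higher (3.17). Of the MATH and BTB families, which hold adaptors of CUL-3 ligases, *math-48* (0.82) of 7 and *bath-9* (2.67) and *bath-13* (1.60) of 33 were higher. *pals-22*, a regulator of the intracellular pathogen response, was the 1 pals gene tested and was called higher, at a mean of 3.06 against 0.047 CPM.

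Hermaphrodite germlines that inherited the sperm genome without H3K27me3 had higher RNA of 5 members and lower RNA of 4, of 75 tested. By edgeR's quasi-likelihood test 9.74% of all genes tested were called (5.11% higher, 4.63% lower), so the number of calls was near the background. The summed level of all members was 1016 ± 63.4 CPM in M+P- and 1002 ± 64.98 CPM in M+P+ (SD, n = 2 each), and did not differ beyond the spread. DESeq2 called 4 higher and 2 lower.

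fbxa-64 had 18 and 21.5 CPM in M+P- and 2.29 and 1.71 CPM in M+P+ hermaphrodite germlines. The log2 fold change was 3.31 ± 0.27 (SE, edgeR adjusted p = 1e-05). fbxa-65 had 20.9 and 20.3 CPM against 3.72 and 3.13 CPM (2.59 ± 0.23, adjusted p = 2.2e-05). Both genes lie on chromosome V, and their M+P- libraries were far above the M+P+ ones.

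fbxa-43 went from near silence, 0.42 and 0.15 CPM, to 7.70 and 5.80 CPM (4.54 ± 0.49). fbxc-50 was well transcribed in either case, with 87.3 and 83.4 CPM against 63.9 and 54.3 CPM, so its change was small but past the threshold (0.53 ± 0.09, adjusted p = 0.0022). fbxc-33 had 6.34 and 4.64 CPM against 2.12 and 2.31 CPM (1.30 ± 0.34, adjusted p = 0.0274).

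The members that were lower in M+P- were fbxc-32, with 12 and 16.3 CPM against 27 and 26.1 CPM (-0.91 ± 0.18), fbxa-125 (-2.65), and the X-linked fbxa-97 (-1.80) and fbxa-170 (-0.88). No pair of groups overlapped, which says little with 2 libraries each. Uncalled members such as fbxa-106 and fbxc-42 did not overlap either. The call of fbxc-32 held in all 8 alternative settings, whereas those of fbxa-125, fbxa-97 and fbxa-170 were less firm. In M+P+ hermaphrodite germlines the H3K27me3 z-score was above 0 for all 5 members called higher and all 4 called lower, and for 31 of 51 tested members without a call (60.8%). The H3K36me3 z-score was above 0 for 0 of the 5, 2 of the 4 and 30 of the 51. These counts carry little information, since the RNA levels of called and uncalled members were not matched. fbxa-43 was nearly silent in M+P+ and entered the test through M+P-, and 94.0% of members under 1 CPM were above 0 for H3K27me3. The calls of fbxc-33, fbxa-125 and fbxa-97 were lost when any of 3 of the 4 libraries was left out, and that of fbxa-170 when any was. Leaving out M+P- replicate 1, M+P+ replicate 1 or M+P+ replicate 2 left 5, 5 and 4 calls.

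Intestine and muscle marker RNA was also higher in the M+P- hermaphrodite libraries. Of the intestine list 5 of 6 tested genes were called higher (summed level 60.9 to 164 CPM against 26.2 to 36.2 CPM), of the muscle list 2 of 7 (47.6 to 50.4 against 19.9 to 22.1 CPM), of the neuron list 2 of 5 (153 to 175 against 146.4 to 158.4 CPM, overlapping), of the cuticle list 1 of 3 (*col-109*; 121 to 124 against 118 to 123 CPM), of the sperm list 1 of 4 (*fog-3*), and of the germline list 0 of 8. Of the somatic gonad list 1 of 4 (*lim-7*) was called, and its sums overlapped, at 43.4 to 46.4 against 44.4 to 44.6 CPM. *elt-2*, *sbt-1*, *rol-6* and *bli-1* were at 0 in M+P+, and *dpy-5* in both. Somatic cells in the samples and somatic genes transcribed in the germline cannot be told apart here, and their part in the members' change was not tested. *skr-3*, a SKP1-related gene that acts with CUL-6 in the intracellular pathogen response, was higher in M+P- (12.9 against 2.97 CPM, log2 fold change 2.12 ± 0.28, edgeR adjusted p = 0.00047). *skr-11* was lower (-0.79), and no other gene of the 30 SCF and cullin genes tested was called. None of 9 other F-box, 3 math, 30 bath and 2 pals genes tested was called by edgeR in hermaphrodites.

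**Figure D3:**
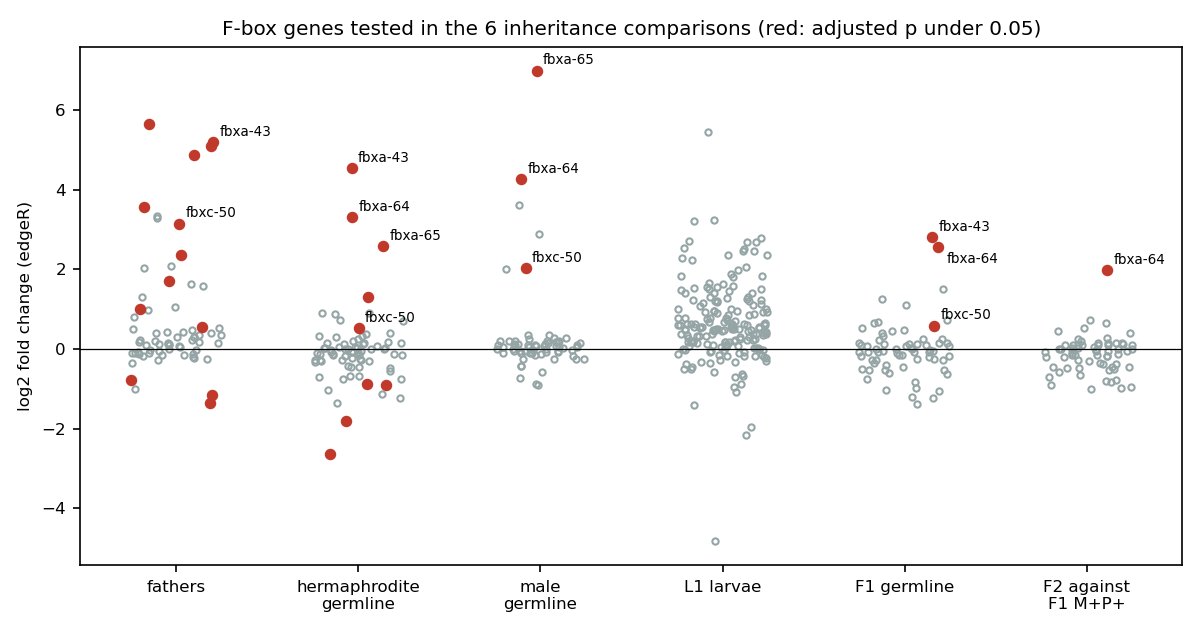
Log2 fold changes (edgeR, vertical) of all members tested in each of the 6 comparisons of histories, 1 point per member. Red points passed an adjusted p of 0.05, and fbxa-64 is above 1.9 in the hermaphrodite, male, F1 and F2 comparisons.

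In male germlines, 3 members were higher in M+P- and 0 lower, of 65 tested, where 0.49% of all genes were called, all of them higher. The 3 were fbxa-65, fbxa-64 and fbxc-50, which had also been called in hermaphrodites of the same cross. fbxa-64 had 18.1, 18.2, 14.7 and 16.3 CPM in M+P- and 0.87, 0.31, 1.44 and 0.77 CPM in M+P+ male germlines (log2 fold change 4.26 ± 0.43 SE, edgeR adjusted p = 0.0103). fbxa-65 had 11.6 to 18 CPM against at most 0.24 CPM in M+P+, where 1, 3, 0 and 1 reads were counted (fitted change 6.99 ± 0.64, adjusted p = 0.0078). fbxc-50 had 15.9, 13.5, 20.1 and 17.6 CPM against 4.86, 3.30, 4.5 and 3.52 CPM (2.03 ± 0.22, adjusted p = 0.0117). No M+P- library overlapped an M+P+ library for these 3.

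fbxa-43 behaved alike without passing: it had 5.08, 3.06, 7.32 and 4.04 CPM against 0.07, 0, 0.85 and 0.60 CPM (3.61, edgeR adjusted p = 0.381). It passed by DESeq2, which called 4 members, where 169 of 8961 genes were called. The male calls depended on single libraries. None of the 3 passed without M+P- replicate 3, M+P- replicate 4 or M+P+ replicate 4. In M+P+ replicate 3 the muscle markers summed to 2442 CPM, where the other male libraries lay between 16.0 and 277 CPM. Without it 5 members were called, where 175 of 9281 genes were. The additional ones were fbxc-33 and fbxa-115. None of 24 SCF and cullin, 9 other F-box, 7 math, 27 bath and 1 pals genes tested was called.

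The second cross used another *mes-3* allele and other libraries, and 3 members were again higher in M+P- F1 germlines, of 68 tested, with 0 lower. Over all genes tested 3.16% were called (2.19% higher, 0.973% lower). fbxa-64 had 11.5 and 12.7 CPM in M+P- replicates 1 and 2 and 2.63, 2.45 and 0.94 CPM in M+P+ (log2 fold change 2.57 ± 0.36 SE, edgeR adjusted p = 0.0065). fbxc-50 had 81.6 and 78.3 CPM against 56.7, 51.5 and 50.1 CPM (0.58 ± 0.10, adjusted p = 0.0151). fbxa-43 had 5.81 and 2.12 CPM against 0.75, 0.47 and 0.42 CPM (2.81 ± 0.57, adjusted p = 0.0310). The groups did not overlap for any of the 3, but neither did they for uncalled members such as fbxa-197. The sizes were close to those of the first cross for fbxc-50 and smaller for fbxa-64 and fbxa-43, differences that were not tested.

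M+P- replicate 3, left out of that fit, had 4.19 CPM of fbxa-64, 106 CPM of fbxc-50 and 9.39 CPM of fbxa-43, all above the 3 M+P+ libraries. These values say little, because genes without counts in that library raise the CPM of the rest. The uncalled fbxa-101 (92.0 CPM) and fbxc-44 (71.5 CPM) also lay above all 3 M+P+ libraries there, while 28 of 65 members had no counts. With it in the fit, edgeR called 0 members. Leaving out either M+P- replicate 1 or M+P+ replicate 3 took the count to 1, and fbxa-43 was also lost without M+P+ replicate 1. *skr-3* was again higher (12.1 against 3.09 CPM, 1.95 ± 0.24, adjusted p = 0.0038), the 1 call among 31 SCF and cullin genes. None of 9 other F-box, 3 math, 32 bath and 2 pals genes tested was called. The intestine list, of which 1 of 7 tested genes was called, summed to 1133 to 1991 CPM in M+P- and 236 to 984 CPM in M+P+. The muscle list, with 1 of 8 called, summed to 76.4 to 106 against 29.5 to 55.6 CPM, and the neuron list, with 2 of 6 called, to 180 to 184 against 156 to 167 CPM. *rab-3*, *rol-6* and *dpy-5* were at 0 in M+P+, *bli-1* in M+P- and *dpy-7* in both. Their part was not tested.

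The F2 germlines were compared with the same 3 M+P+ F1 libraries, so both comparisons share controls, and generation and history cannot be told apart. Of 65 members tested, 1 was higher and 0 lower, where 3.21% of all genes were called (2.54% higher, 0.663% lower). The 1 member was fbxa-64, with 9.87, 6.08 and 8.33 CPM in GM+GP- and 2.63, 2.45 and 0.94 CPM in M+P+ F1 germlines (log2 fold change 1.97 ± 0.35 SE, edgeR adjusted p = 0.0111). Every F2 library lay above every control library. fbxc-50 had 74.7, 62.0 and 78.9 CPM, also without overlap (0.41, adjusted p = 0.0717), and fbxa-43 had 0.74, 0.74 and 3.24 CPM. The labels do not say that replicate numbers pair these samples. They were taken to do so because same-numbered samples deviated together (correlations 0.143 to 0.403), and the fit above ignores such pairing. With the replicate number as a block 5 of the 65 members were called, where 634 of 8296 genes were. They were fbxa-64 (1.99) and fbxc-50 (0.41) higher, and fbxc-32 (-0.59), fbxa-149 (-0.99) and fbxa-184 (-1.01) lower. Without the block, the call of fbxa-64 was lost when F2 replicate 1 (adjusted p = 0.0532) or F2 replicate 3 (0.0566) was left out, and 2 members were called without F2 replicate 2. *skr-3* was higher in F2 too (9.32 against 3.09 CPM, 1.55 ± 0.22, adjusted p = 0.0028). Among the markers, 1 of 8 muscle genes (79.2 to 85.6 CPM in F2), 1 of 6 intestine genes (483 to 1178 CPM), 3 of 6 neuron genes (182 to 188 CPM) and 1 of 4 somatic gonad genes (39.1 to 45 CPM) were called higher, and their part was not tested.

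In larvae most tested members had higher values in M+P-, but none passed edgeR's threshold. By edgeR, 0 of 181 members tested were called, where 0.00684% of all genes were. With an unadjusted p below 0.05 there were 24 of them (13.3%), against 6.95% of all genes. DESeq2 called 93 of 14332 genes there, among them 4 members, all higher: fbxa-166, fbxa-4, fbxc-29 and fbxa-67. The median log2 fold change of the tested members was 0.51, against 0.03 over all genes tested, and it was above 0 for 145 members (80.1%), against 53.4% of all genes. A gene can pass the filter through 1 group alone, which affects both values. For example, fbxc-29 had 2.39, 1.67 and 4.12 CPM in M+P- larvae and 0, 0.16 and 0 CPM in M+P+ larvae. How much this moved the median and the share was not tested. The summed level of members was 1751 ± 361 CPM in M+P- (1335 to 1980) and 1181 ± 259 CPM in M+P+ (916 to 1433; SD, n = 3 each), with overlapping ranges. In M+P-, 40.5% of members reached 1 CPM, against 32.3% in M+P+.

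fbxa-4 had 8.47, 9.62 and 10.3 CPM in M+P- larvae and 1.92, 2.08 and 2.68 CPM in M+P+ larvae (log2 fold change 1.98, edgeR adjusted p = 0.287). fbxa-67 had 22.2, 16.1 and 13.7 CPM against 4.97, 2.71 and 5.88 CPM (1.80, adjusted p = 0.287). fbxa-166 had 14.6, 8.79 and 10.01 CPM against 1.52, 0.26 and 2.94 CPM (2.68, adjusted p = 0.393). None of these 3 overlapped between the groups. fbxa-64 had 9.77, 9.88 and 5.01 CPM against 3.10, 2.29 and 3.10 CPM (1.40, adjusted p = 0.510), and fbxa-65 had 16.2, 12 and 8.40 CPM against 3.67, 3.13 and 4.94 CPM (1.51, adjusted p = 0.370), again without overlap. The authors' deposited table called 5 members higher in larvae (0.507% of all its genes were called), the 4 that DESeq2 called here and fbxb-25. Muscle markers summed to 16458 to 17558 CPM in M+P- and 20186 to 21912 CPM in M+P+, and intestine markers to 5834 to 7287 and 8023 to 8413 CPM, with 0 genes of either list called. The make-up of the larvae was not tested as a source of the members' shift. None of 31 SCF and cullin, 8 other F-box, 26 math, 22 bath and 17 pals genes tested was called in larvae.

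The effect of history was compared between the first-cross tissues in 1 fit. The change of 2 members was lower in larvae than in male germlines, fbxa-65 (log2 difference -5.66 ± 0.70 SE, edgeR adjusted p = 0.0046) and fbxa-191 (-4.79 ± 0.79, adjusted p = 0.0296), of 232 tested, where 0.135% of all genes were called. fbxa-191 had 0, 2 and 0 counts in M+P- larvae, so the size of its fitted difference depends on how zeros are handled. It had 1.04 to 1.63 CPM in M+P+ larvae and 11.8 to 16.8 CPM in all male germline libraries. Between larvae and hermaphrodite germlines 0 members were called (0.0468% of all genes; unadjusted p under 0.05 in 13 members or 5.603%, against 4.497% of all genes), and between male and hermaphrodite germlines 0 (0% of all genes; 3 or 1.29%, against 2.26%). Over the 3 contrasts, 9 members were called by DESeq2. The count of 2 became 1 without any of the M+P- male libraries or without M+P+ male replicate 1 or 4, and 5 without M+P+ male replicate 3 or M+P+ larval replicate 2. It became 3 without M+P+ hermaphrodite replicate 1 or 2, M+P- larval replicate 3, or M+P+ larval replicate 1 or 3.

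Over the 6 comparisons of histories, 19 of 217 members tested were called at least once (8.76%) and 5 more than once (2.304%). Over all 16512 genes tested these shares were 8.77 and 2.53%, so both shares of the members were near the background. The F1 and F2 comparisons share their control libraries. fbxa-64 was called in hermaphrodites, males, F1 and F2, and fbxc-50 in fathers, hermaphrodites, males and F1. fbxa-43 was called in fathers, hermaphrodites and F1, fbxa-65 in hermaphrodites and males, and fbxc-33 in fathers and hermaphrodites. No fbxb gene was called, but only 4 or 5 of them passed the filter in each germline comparison and 11 in larvae. In the authors' deposited table, 11 members were higher and 2 lower in fathers (10.1% of all its genes with an adjusted p were called), of which 8 were also called here, and 4 were higher and 4 lower in hermaphrodites (5.99%), of which 7 were. The authors' deposited table had 5 members higher in male germlines (1.51%), 3 of them called here, and the same number, 3, higher in F1 germlines (3.66%) as called here, all shared.

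The H3K27me3 read counts over members were first compared between histories as levels in CPM. No spike-in was used here, so such scaling cannot show a change shared by all genes. In the first cross 0 of 377 members tested were called, as were 0% of all genes, and DESeq2 called 0 members. At an unadjusted p under 0.05 there were 3 members (0.796%), against 1.03% of all genes, so their number is no result. They were fbxa-65, fbxc-50 and fbxa-64, whose values are given because their RNA was called higher in the same tissue. fbxa-65 had 8.86 and 6.77 CPM of H3K27me3 in M+P- and 18.3 and 16.1 CPM in M+P+ (log2 fold change -1.19 ± 0.29 SE, unadjusted p = 0.0045, edgeR adjusted p = 1). fbxc-50 had 14.3 and 13.8 CPM against 25.7 and 22.3 CPM (-0.82 ± 0.25, unadjusted p = 0.0135), and fbxa-64 had 13.7 and 17.7 CPM against 24.1 and 27.3 CPM (-0.76 ± 0.27, unadjusted p = 0.0263). In each the M+P- libraries were below the M+P+ ones, but these p-values carry no correction.

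No H3K36me3 change passed the threshold in the first cross either. fbxa-64 had 34.0 and 28.5 CPM in M+P- and 7.30 and 0.21 CPM in M+P+ (3.11 ± 1.32, edgeR adjusted p = 1). fbxa-65 had 18.4 and 21 CPM against 6.76 and 1.10 CPM (2.31 ± 0.85, adjusted p = 1). fbxc-50 had 18.6 and 25.3 CPM against 13.7 and 14.1 CPM (0.42 ± 0.54, adjusted p = 1), and its authors' z-scores overlapped, at 0.057 and 0.41 in M+P- and -0.29 and 0.22 in M+P+. In fbxa-64 and fbxa-65 the lower M+P+ value came from replicate 2, the library that stands apart. Over the 377 members tested 0 were called (0% of all genes), 1 had an unadjusted p under 0.05 (0.265%, against 0.539% of all genes), and DESeq2 called 0. Leaving out M+P+ replicate 1 leaves replicate 2 alone as the control. The calls that then appeared have no share of all genes beside them and are no result about the members.

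**Figure D4:**
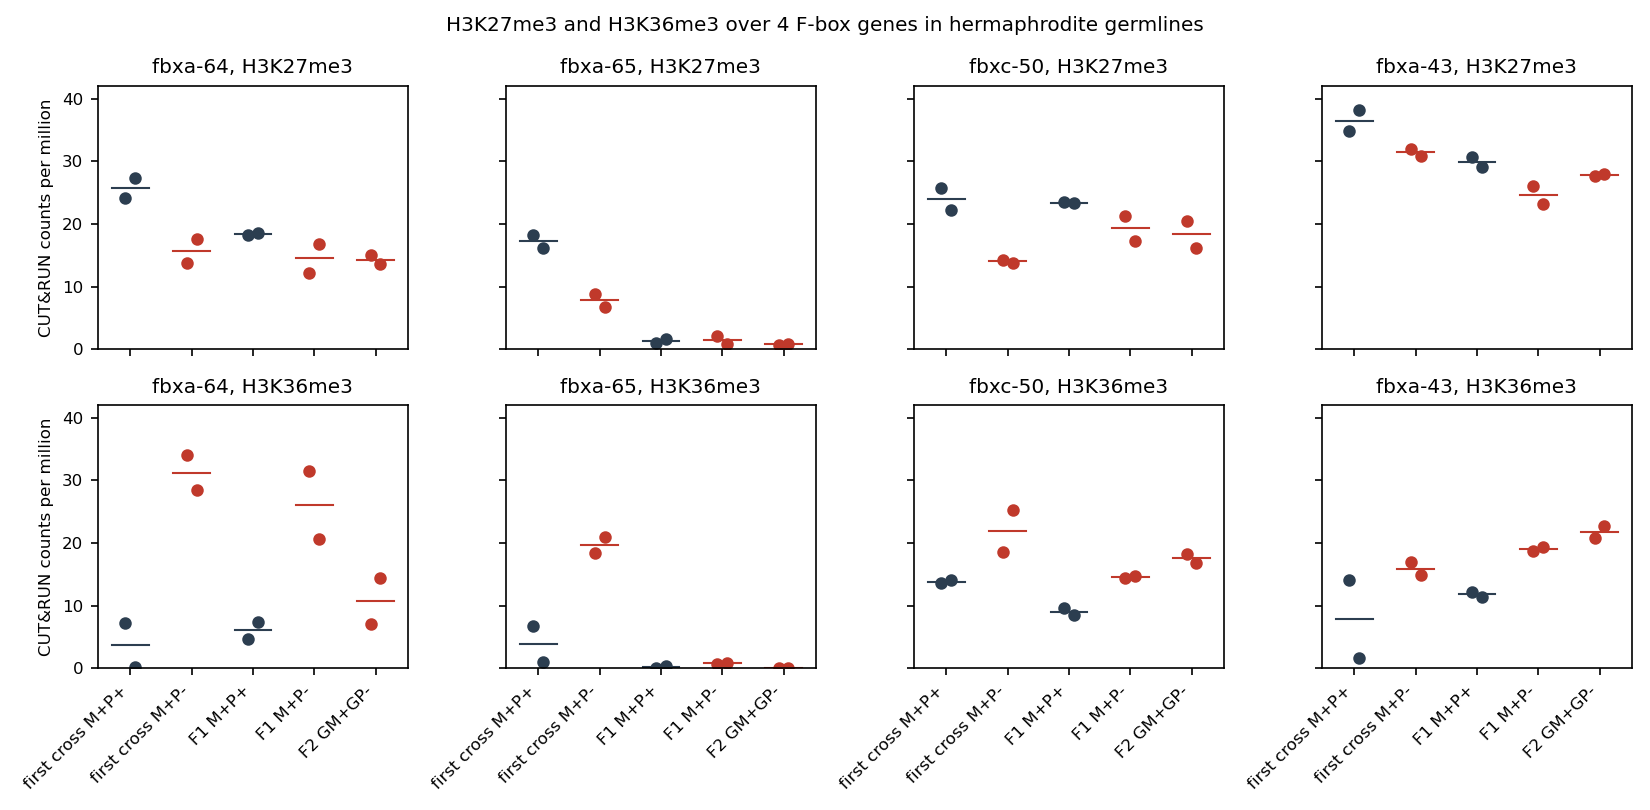
CUT&RUN levels in CPM of H3K27me3 and H3K36me3 over fbxa-64, fbxa-65, fbxc-50 and fbxa-43 in each hermaphrodite germline library, with group means as lines. Over fbxa-64 the M+P- libraries of both crosses lie below the M+P+ ones for H3K27me3 and above them for H3K36me3.

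In the second cross, fbxa-64 was the 1 member called for H3K36me3 in F1 germlines, of 376 tested, where 0.121% of all genes were called, all higher. It had 31.5 and 20.7 CPM in M+P- and 4.69 and 7.44 CPM in M+P+ (log2 fold change 2.06 ± 0.36 SE, edgeR adjusted p = 0.025), with no overlap. The call was lost when replicate 1 of either history was left out, and 2 members were called when replicate 2 of either was. Its H3K27me3 was 12.2 and 16.8 CPM against 18.2 and 18.6 CPM (-0.33 ± 0.23, adjusted p = 1), without overlap but not past the threshold. For F1 H3K27me3, 0 of 377 members were called (0% of all genes; at an unadjusted p under 0.05, 3 members or 0.796%, against 2.11% of all genes; 0 by DESeq2), and 2 without M+P- replicate 2.

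In F2 germlines compared with M+P+ F1 ones, 5 of 377 members were called for H3K27me3, 3 higher and 2 lower, where 10.6% of all genes were called (0.65% higher, 9.91% lower). fbxc-14 had 30.7 and 34.2 CPM against 21.3 and 22 CPM (0.58), fbxa-176 45.5 and 43.5 against 31.1 and 32.2 CPM (0.49), and fbxa-55 62.7 and 75.1 against 53.6 and 45.9 CPM (0.46). The lower members were fbxa-145, with 5.89 and 8.59 CPM against 12 and 14.1 CPM (-0.85), and fbxa-101, with 7.46 and 7.95 CPM against 12.9 and 12.8 CPM (-0.74). None of the 5 was a member with a called RNA change. The median log2 fold change of members was 0.18, against 0.02 over all genes. Without M+P+ F1 replicate 2 there were 0 calls, without M+P+ F1 replicate 1 or F2 replicate 2 there were 8, and without F2 replicate 1 there were 16. F2 H3K36me3 gave 0 calls of 376 (0% of all genes; 0 by DESeq2; 24 members or 6.38% at an unadjusted p under 0.05, against 15.0% of all genes), 1 without M+P+ F1 replicate 2 and 26 without F2 replicate 1. fbxa-64 stood at 15.1 and 13.5 CPM of H3K27me3 and at 7.13 and 14.5 CPM of H3K36me3 in F2, where its RNA was called higher.

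fbxa-65 could not be followed into the second cross. It had at most 0.24 CPM of RNA in all F1 and F2 libraries. Its CUT&RUN reads were nearly gone there as well, averaging 0.77 CPM over both marks, against 12.2 CPM in the first cross and 16.7 CPM in *him-8* males. Annotated neighbours were low in the second cross too: C17B7.5 averaged 0.096 CPM there and 41.9 CPM in the first cross, and C17B7.3 averaged 0.31 and 8.49 CPM. Such a drop, to a ratio under 0.1 of the first cross among genes with at least 5 CPM there, was seen for 1 of 375 members and 10 of 19386 other genes. fbxa-64 and its neighbours had similar CUT&RUN levels in both crosses, with 19.1 and 15.0 CPM for fbxa-64 itself. The reason for the missing reads at fbxa-65 was not tested.

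The strain differences let reads be assigned to the sperm (N2) or oocyte (CB4856) genome. Over all autosomal members together, the sperm genome's share of assigned RNA reads was 61.9 and 65.7% in M+P- hermaphrodite germlines and 48.8 and 51.8% in M+P+ ones, on 991 to 1189 reads per library. Other autosomal genes had means of 52.8 and 51.8%. In males the members' share was 53.2 ± 0.394% in M+P- and 48.2 ± 0.315% in M+P+ (SD, n = 4 each), where other genes had 52.9 and 51.9%. In larvae it was 66.4 ± 1.53% against 51.2 ± 5.08% (n = 3 each). In F1 germlines it was 61.8 ± 2.07% (n = 2) against 52.3 ± 2.04% (n = 3). In these tissues the M+P- and M+P+ libraries did not overlap, and no p is given for a sum over members. F2 germlines have no M+P+ group and no father in their labels. Their share on the allele headed as sperm was 56.4 ± 0.568% (n = 3), where other autosomal genes had 50.7 to 53.9%. That allele traces to the grandparents, so the F2 value is not the share of a sperm-inherited genome.

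A few members carried part of this shift. Without fbxa-64, fbxc-50 and fbxa-43, the share in hermaphrodites was 55.7% (52.8 to 58.7) in M+P- and 46.1% (44.3 to 47.9) in M+P+. In males it was 49.6 and 48.0%, in larvae 66.3 and 51.4%, in F1 54.6 and 47.8%, and in F2 48.2%. These 3 were left out after their values had been seen. The larval shift was thus as large without them, while in F2 the share then lay within the range of the M+P+ F1 libraries (46.2 to 49.3%).

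No single member's RNA allele share changed with history past the threshold. By edgeR's test of allele by history, 0 of 22 members were called in hermaphrodites (0.407% of all genes called), 0 of 21 in males (0.283%), 0 of 37 in larvae (0.0292%) and 0 of 15 in F1 (0.049%). Members at an unadjusted p under 0.05 numbered 3, 0, 4 and 1, or 13.6, 0, 10.8 and 6.67% of those tested, against 6.20, 5.17, 3.18 and 5.93% of all genes. No other tool was run for the alleles. fbxa-64 had 25 sperm and 1 oocyte reads, and 53 and 3, in the M+P- hermaphrodite libraries, and 1 and 1, and 4 and 2, in the M+P+ ones (adjusted p = 0.61). In M+P- males its sperm reads were 38, 55, 29 and 29 and its oocyte reads 8, 3, 2 and 1. The RNA of fbxa-64 in M+P- germlines thus came mostly from the sperm genome, but the few reads in M+P+ left its share there undetermined.

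fbxc-50 had more allele reads, and its sperm share was high with either history. In hermaphrodites 87.8 and 84.9% of its 180 and 239 reads in the M+P- libraries were of the sperm genome, against 82.8 and 84.6% of its 116 and 104 reads in the M+P+ libraries. fbxa-43 had 25 sperm and 1 oocyte reads, and 17 and 0, in M+P- hermaphrodites, and 1 read in all in M+P+. Whether reads of CB4856 map as well as those of N2 at these genes was not tested.

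**Figure D5:**
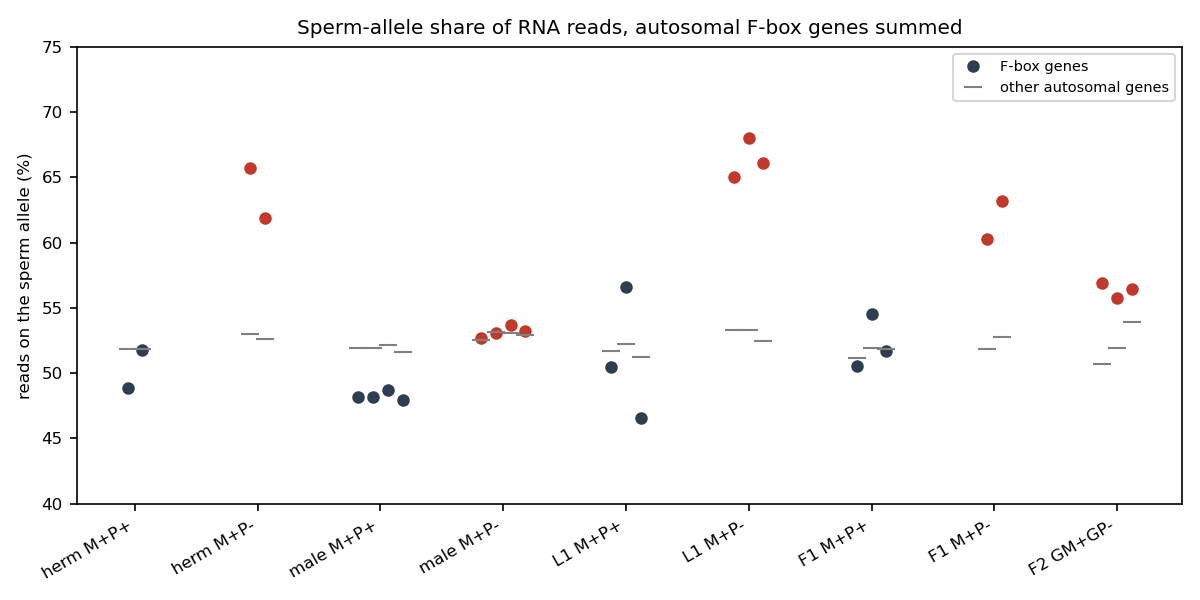
Percent of allele-assigned RNA reads that came from the sperm genome, summed over autosomal members, 1 point per library by tissue and history, with dashes for other autosomal genes and a vertical axis that starts at 40%. M+P- libraries lie above M+P+ libraries in each tissue that has both, with 61.9 and 65.7% against 48.8 and 51.8% in hermaphrodite germlines. The F2 points show the allele headed as sperm, which traces to the grandparents.

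For H3K27me3 on the alleles in the first cross, 1 member of 244 was called, fbxa-64, with a lower sperm share in M+P-, where 1.29% of all genes were called (1.27% lower). It had 31 sperm and 32 oocyte reads, and 44 and 57, in M+P-, against 77 and 29, and 130 and 48, in M+P+. Pooled over libraries the sperm share was 45.7 and 72.9% (log2 ratio change -1.65 ± 0.40 SE, edgeR adjusted p = 0.0307). The call was lost without M+P- replicate 2, M+P+ replicate 1 or M+P+ replicate 2, 3 members were called without M+P- replicate 1, and 0 were when each allele was scaled by its own total. Over the 244 members the median sperm share was 50.6% in M+P- and 54.4% in M+P+, and it was lower in M+P- for 168 (68.9%), against 74.4% of other genes. In the second cross 0 of 245 members were called (0% of all genes; unadjusted p under 0.05 in 8 or 3.27%, against 4.80% of all genes), with 150 (61.2%) lower in M+P-, against 60.01% of other genes. H3K36me3 reads on fbxa-64 came mainly from the sperm genome in M+P-, with 81 sperm and 10 oocyte reads, and 123 and 5, in the first cross, and 114 and 13, and 56 and 11, in F1. In M+P+ they were 35 and 7, and 0 and 0, in the first cross, and 6 and 15, and 13 and 10, in F1, a difference that was not tested.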

How the data were processed

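RNA-seq and CUT&RUN data of 57 libraries were analysed. The authors deposited raw read counts per gene for 33 RNA and 24 CUT&RUN libraries and counts per parental allele, per the file headers. The score values per gene and mark are z-scores made by the authors from the CUT&RUN libraries, per the file headers, by a formula that no source used here states. The log2 fold changes, p-values and RPKM group values are those of the authors' deposited table. Its F2 columns have repeated headers and were not used. The ce10 genome and the tools DESeq2 1.22.2, DESeq, HTSeq, Bowtie2 2.3.5.1 and TopHat2 2.1.1 are listed per the submitters' processing notes, with no role given.

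Counts were tested with edgeR 4.0.16 (TMM scaling, filterByExpr, quasi-likelihood test, Benjamini-Hochberg over all genes tested, threshold 0.05) within the groups compared, and log2 fold changes carry SE. CPM is the count scaled to the library total. The allele test took genes with a mean of at least 10 reads per library, with library as a block. The main edgeR fits (between groups, of the alleles and of the tissue difference) were tested on simulated data, and the alternatives listed next were not. DESeq2 1.42.0, RLE scaling, no filter, a replicate block, other read minimums, own allele totals and leaving out each library were the alternatives. Of 45461 gene names in the RNA table, 44080 matched RefSeq.

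Members and lists were chosen with earlier results of these data known. Members named are those called in a comparison of histories or an allele test (at most 10 per direction), the 8 highest in RPKM in M+P+ hermaphrodite germlines and in larvae, the 5 largest H3K27me3 changes called per direction, and fbxa-75, fbxa-158, fbxa-65, fbxa-125, fbxa-191 and fbxa-192. Others named were chosen after their values were seen.

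Same-numbered F2 and M+P+ F1 samples deviated together (correlations 0.143 to 0.403 over 3 pairs, each sample closest to its own number), so the numbers were taken to pair these samples. The labels do not say that replicates are paired in these or in other groups. None of 47 replicate pairs was identical. The p-values measure the spread between these libraries. A count of 0 in an RNA library allows at most 3 counts, or 0.156 to 0.526 CPM, which covers counting error only.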

Additional observations from a re-analysis of the deposited data

Results flagged for a closer look

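In the group of 4 M+P- male germline libraries, fbxa-166 had 1.83 CPM in replicate 3, far from the 0.07 to 0.23 CPM of the others, and fbxa-192 had 8.81 CPM in replicate 4, where the others had 5.47 to 6 CPM. In the group of 4 M+P+ male germline libraries, fbxa-166 had 1.02 CPM in replicate 3 and 0 in the others. Chance alone marks about 1 in 20 such groups. The M+P+ male replicate 3 was also the library with muscle markers at 2442 CPM, and the part of the muscle RNA in its fbxa-166 value was not tested.

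The effect of history differed between tissues for fbxa-65, whose log2 fold change was lower in larvae than in male germlines by a difference of -5.66 (SE 0.70, edgeR adjusted p = 0.0046), and for fbxa-191, with a difference of -4.79 (SE 0.79, adjusted p = 0.0296).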

How the results depend on the processing

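RLE scaling, 30 or 3 reads as the allele minimum and, for RNA, DESeq2 or no filter mostly left the counts of called members within 1.5 times. DESeq2 called 4 members in larvae (93 of 14332 genes), 2 in F2 RNA and 9 in the tissue difference. Testing without a filter called 4 in larvae (124 of 21856 genes), 5 in F2 RNA and 13 in F2 H3K27me3. With the replicate number as a block the counts were 5 in F2 RNA (634 of 8296 genes) and 8 in F1 RNA (961 of 8326 genes). They were 22 in first-cross H3K27me3 and 8 in F2 H3K27me3. For H3K36me3 they were 1 in the first cross (7 of 24469 genes), 8 in F1 and 8 in F2. Outside F2 RNA these comparisons have groups of 2 libraries, where correlations of same-numbered and differently numbered samples differ only in sign, so pairing could not be judged. For same-numbered samples they were 0.721 in first-cross H3K27me3, 0.449 in F1 RNA and 0.443 in first-cross H3K36me3. They were 0.197 in F2 H3K36me3, 0.176 in F1 H3K36me3 and -0.033 in F2 H3K27me3. With all 6 F1 libraries the count was 0, and with each allele's own total it was 0 for first-cross H3K27me3 alleles. The cause of these differences was not tested. The F1 allele test with all libraries was not run, since M+P- replicate 3 has no allele counts here.

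Leaving out 1 library gave 2 to 10 calls in fathers, 4 to 10 in hermaphrodites, 0 to 5 in males, 1 to 4 in F1 and 0 to 2 in F2. It gave 24 to 45 between male and hermaphrodite germlines, 0 to 2 for F1 H3K27me3, 0 to 16 for F2 H3K27me3, 0 to 119 for first-cross H3K36me3, 0 to 2 for F1 H3K36me3, 0 to 26 for F2 H3K36me3, 0 to 3 for first-cross H3K27me3 alleles and 1 to 5 for the tissue difference. A lone remaining library was assumed to vary like the other group. Where no share of all genes stands beside a count from an alternative, it shows how far the calls moved. It cannot be set against the background. No result changed direction under any alternative run. Groups of 2 libraries limit the CUT&RUN and hermaphrodite comparisons, and single members had few allele reads. Of the values of named members, 135 kept and 11 lost their side of the threshold under settings other than leaving out 1 library, and 97 kept and 90 lost it when 1 library was left out.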
